A study of Homo sapiens with 4 samples.

Results

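The regions described here were intronic peaks of ZHX2 binding that lay near a transcription start. They were taken from a deposited list of 8871 chromatin immunoprecipitation (ChIP) peaks as the rows whose annotation class was an intron and whose distance to the nearest transcription start was 5000 bp or less. That rule, which used no read number and no fold, gave 1063 peaks, assigned by the list to 1017 genes. Of these genes, 977 had 1 such peak, 34 had 2 and 6 had 3.

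The libraries came from DB, a human cell line long established from a diffuse large B-cell lymphoma. The compared arms were cells labelled Mut4, by the label a mutant of ZHX2 whose changed residues are not described, and cells labelled ZHX2. Fixed chromatin from both was sheared and precipitated by a service company with the same antibody against ZHX2, and 1 ChIP library and 1 input came from each arm. The labels give no treatment or time. They leave unsaid whether the cells' own ZHX2, which this antibody can also bind, was still present. With 1 ChIP library per arm no spread between cultures could be formed, so no difference between the arms was tested and "higher" and "lower" below describe these libraries. ChIP signal does not report transcript levels, so the labelled cell type was not checked by expression.

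ZHX2 is a zinc-finger and homeobox protein that regulates transcription, known mainly from studies of liver and of B cells. The start of the first intron is a usual place for such factors to bind, because the open chromatin around a promoter often runs on past the first exon. Introns near a start can also hold enhancers and the starts of other transcripts of the same gene.

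Reads per peak were recovered from the deposited values and summed over all listed peaks to 271694 in Mut4 and 541900 in ZHX2. The fold of a peak is its reads in Mut4 divided by its reads in ZHX2, times 2.14, the ratio of library sizes that the authors' scaling implies. Its 95% interval is exact and covers counting error only. Reads that carry no molecular identifier can be copies of 1 molecule, an error that the interval leaves out. Under this scaling a typical peak has a fold near 1 by construction. Without scaling, every log2 fold is lower by 1.10.

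The 8 start windows printed here belong to genes of intronic peaks with folds far from 1, and they show what the sequence beside such peaks looks like. Each runs from 250 bases before to 50 bases after the RefSeq start (GRCh38.p14), read along the gene's strand, and overlaps the intronic peak of its own gene. Capitals mark the CCAAT box (CCAAT, or ATTGG on the other strand) and the GC box (GGGCGG, or CCGCCC on the other strand). The first 4 belong to peaks that were higher in Mut4.
ZNF343: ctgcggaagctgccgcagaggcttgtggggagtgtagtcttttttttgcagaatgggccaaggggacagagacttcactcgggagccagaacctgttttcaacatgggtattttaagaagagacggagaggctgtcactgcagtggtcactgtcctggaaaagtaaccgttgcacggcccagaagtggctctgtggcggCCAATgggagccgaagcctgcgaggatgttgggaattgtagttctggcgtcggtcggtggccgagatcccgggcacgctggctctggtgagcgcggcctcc
NCOA5: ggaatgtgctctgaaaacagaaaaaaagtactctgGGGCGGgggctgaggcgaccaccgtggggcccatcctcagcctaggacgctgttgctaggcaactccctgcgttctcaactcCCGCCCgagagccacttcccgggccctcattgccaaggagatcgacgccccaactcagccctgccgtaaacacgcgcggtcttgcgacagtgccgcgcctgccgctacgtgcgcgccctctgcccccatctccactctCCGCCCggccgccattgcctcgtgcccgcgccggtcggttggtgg
U2AF2: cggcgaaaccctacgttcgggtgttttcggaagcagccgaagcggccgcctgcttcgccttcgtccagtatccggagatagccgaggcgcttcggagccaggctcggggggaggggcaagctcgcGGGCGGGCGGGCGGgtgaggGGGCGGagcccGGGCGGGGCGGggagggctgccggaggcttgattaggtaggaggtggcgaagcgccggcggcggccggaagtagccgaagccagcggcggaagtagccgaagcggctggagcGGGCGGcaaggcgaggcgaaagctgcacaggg
COPS6: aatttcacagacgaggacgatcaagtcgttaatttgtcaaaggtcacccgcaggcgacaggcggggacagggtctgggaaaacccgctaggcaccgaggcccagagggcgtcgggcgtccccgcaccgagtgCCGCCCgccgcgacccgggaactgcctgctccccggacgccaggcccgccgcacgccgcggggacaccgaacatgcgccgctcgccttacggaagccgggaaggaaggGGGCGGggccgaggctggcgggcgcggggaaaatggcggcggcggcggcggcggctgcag
The other 4 belong to peaks that were lower in Mut4.
HMGB3: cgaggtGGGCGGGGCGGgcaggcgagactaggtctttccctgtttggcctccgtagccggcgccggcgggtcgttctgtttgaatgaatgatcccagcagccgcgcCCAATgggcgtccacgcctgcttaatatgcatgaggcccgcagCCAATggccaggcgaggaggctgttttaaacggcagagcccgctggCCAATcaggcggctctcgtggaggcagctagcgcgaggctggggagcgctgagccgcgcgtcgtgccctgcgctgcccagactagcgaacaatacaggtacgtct
KLHL29: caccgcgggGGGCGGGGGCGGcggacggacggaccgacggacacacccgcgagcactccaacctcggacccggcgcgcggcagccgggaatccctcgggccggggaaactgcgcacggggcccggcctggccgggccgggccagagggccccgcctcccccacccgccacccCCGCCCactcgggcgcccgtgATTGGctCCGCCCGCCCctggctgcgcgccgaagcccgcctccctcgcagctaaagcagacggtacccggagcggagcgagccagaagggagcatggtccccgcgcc
SGCB: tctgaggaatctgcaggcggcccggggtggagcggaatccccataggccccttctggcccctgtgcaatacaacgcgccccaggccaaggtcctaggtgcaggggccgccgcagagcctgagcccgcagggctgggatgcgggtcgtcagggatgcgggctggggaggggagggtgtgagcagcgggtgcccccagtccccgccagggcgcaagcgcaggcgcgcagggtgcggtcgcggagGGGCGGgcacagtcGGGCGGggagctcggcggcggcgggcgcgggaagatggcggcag
RRBP1: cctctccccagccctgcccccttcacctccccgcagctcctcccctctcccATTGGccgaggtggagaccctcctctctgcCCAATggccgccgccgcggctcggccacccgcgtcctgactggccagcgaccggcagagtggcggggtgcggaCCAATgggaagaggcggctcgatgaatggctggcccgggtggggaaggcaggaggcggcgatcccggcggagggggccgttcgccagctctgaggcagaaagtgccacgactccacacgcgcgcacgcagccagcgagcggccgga
The window of ZNF343 lay at chr20:2508866-2509165 on the minus strand, held 1 CCAAT box and no GC box, and was 58.3% G+C. That of NCOA5 (chr20:46089913-46090212, minus strand) held 3 GC boxes at 66.3% G+C. That of U2AF2 (chr19:55654785-55655084, plus strand) held 7 GC boxes, some of them overlapping, at 72.3% G+C, and that of COPS6 (chr7:100088719-100089018, plus strand) held 2. On the side lower in Mut4, the window of HMGB3 (chrX:150983085-150983384, plus strand) held 3 CCAAT boxes and 2 GC boxes at 65.3% G+C. KLHL29 (chr2:23384929-23385228, plus strand) had 1 CCAAT box, 5 GC boxes and the richest window of the 8, at 79.0% G+C. SGCB (chr4:52038250-52038549, minus strand) held 2 GC boxes at 74.7%, and RRBP1 (chr20:17682193-17682492, minus strand) held 3 CCAAT boxes and no GC box at 72.7%. The window of ZNF343, with 17 CG pairs, was near the median of all RefSeq windows (58.7% G+C and 14 CG pairs), and the other 7 windows were above both medians. Of the 300 bases of a window, the peak covered 274 at ZNF343, 155 at NCOA5, 129 at U2AF2 and 294 at COPS6. It covered 17 at HMGB3, 300 at KLHL29, 273 at SGCB and 58 at RRBP1. Boxes can therefore lie outside the peak, as all those of HMGB3 and RRBP1 do. The boxes are matches of letters, not sites of binding.

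Most of the peaks had their middle downstream of the nearest start, a side that the choice of introns favours. Of the 1063 peaks, 925 had their middle downstream, between 102 and 4972 bp, and 138 upstream, between 1005 and 4978 bp. The gap around the start itself follows from the annotation, since peaks of the promoter class had their middles between 999 bp upstream and 925 bp downstream. Downstream the distances of the promoter class and of the intronic peaks overlapped. The median distance was 462 bp, and 581 peaks (54.7%) were long enough to span the start they were measured from. By intron, 857 lay in intron 1, 81 in intron 2, 31 in intron 3 and 94 in a later one. Protein-coding genes held 883 of them, long non-coding RNA genes 120 and other gene types 60, of which 44 were pseudogenes. The upstream peaks lie in an intron and before a start at the same time, because the intron belongs to another transcript or gene than the nearest start or precedes an internal start.

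These peaks were shorter and weaker than those at promoters. Their median length was 891 bp, with a median of 19 reads in Mut4 and 40 in ZHX2. The 5025 promoter-class peaks had a median of 1037 bp, 26 reads in Mut4 and 51 in ZHX2. The 547 intronic peaks farther than 5000 bp from a start were smaller again, at 755 bp with 16 reads in Mut4 and 27 in ZHX2. The intronic peaks near starts held 9.60% of all listed reads in Mut4 and 10.0% in ZHX2.

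In the deposited list, 20 of the 1063 peaks were marked as unique to Mut4, 13 as common to both arms and 1030 (96.9%, exact 95% interval 95.7 to 97.9) as unique to ZHX2. Over all listed peaks 2.37% were unique to Mut4, 2.09% common and 95.5% unique to ZHX2, so the split was near the background. The ZHX2-only mark did not go with more scaled signal in ZHX2. Among the 1030 peaks marked unique to ZHX2, 487 (47.3%, 44.2 to 50.4) had a fold above 1, that is, more scaled signal in Mut4. The 13 common peaks had the highest medians of the 3 marks, 53 reads in Mut4 and 100 in ZHX2. The 20 Mut4-only peaks had a median length of 190 bp and a median of 19 reads in Mut4 and 5.5 in ZHX2, and none of them spanned its start. All 20 had folds above 1, as a call in Mut4 alone favours.

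**Figure D1:**
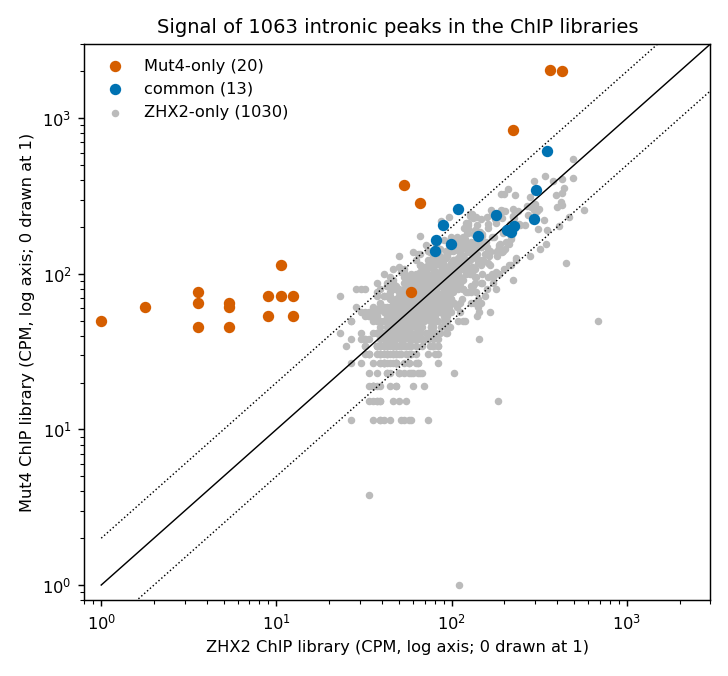
Signal of each of the 1063 intronic peaks in the Mut4 library (vertical) and the ZHX2 library (horizontal), in CPM over listed peaks, both axes logarithmic, with peaks without reads drawn at 1. The solid line marks a fold of 1 and the dotted lines 2-fold; the 1030 ZHX2-only peaks (grey) lie on both sides of the solid line, and 20 Mut4-only peaks (orange) lie above it.

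Under the authors' scaling the intronic peaks as a whole did not lean to either arm. A fold above 1 was found at 516 of 1063 (48.5%, 45.5 to 51.6), against 49.6% of all listed peaks, and the median log2 fold was -0.013 (quartiles -0.43 and 0.34). Past 2-fold lay 43 peaks higher in Mut4, where the background over all listed peaks was 5.33%, and 84 lower, where it was 8.50%. The counting interval lay above 1 at 96 peaks and below 1 at 93, against 11.0% of all listed peaks in each direction, and it included 1 at the other 874. An adjusted p of 0.05 was passed, by the authors' deposited table, at 25 peaks that were higher in Mut4, 18 of them Mut4-only, and at 19 that were lower, against 3.43% and 2.53% of all listed peaks. All of these shares were near or below the background. The p-values compare 2 libraries under an assumed dispersion of 0.01; with 0.04 an exact negative binomial test left 19 in place of 44.

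Direction differed with the position of the intronic peak. Of the 581 peaks that spanned their start, 247 were higher in Mut4 (42.5%, 38.5 to 46.6), with a median log2 fold of -0.094. Of the 482 that lay clear of it, 269 were higher (55.8%, 51.2 to 60.3), with a median of 0.099. The intervals of these shares do not overlap, but they treat peaks of the same 2 libraries as separate draws. All Mut4-only peaks lay clear of their start, and their folds above 1 are favoured by the call, which raises the second share. Reads differed too: the median was 22 in Mut4 and 48 in ZHX2 for peaks that spanned the start, and 16 in Mut4 and 32 in ZHX2 for the others.

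By distance, the peaks whose middles lay 250 to 500 bp away were lowest, with 121 of 314 higher in Mut4 (38.5%, 33.1 to 44.2). Those at 2000 to 3000 bp were highest, with 63 of 90 (70.0%, 59.4 to 79.2) and a median log2 fold of 0.28. At 3000 to 5000 bp the share was 54.9% (45.2 to 64.2) of 113. Upstream peaks were higher in Mut4 at 88 of 138 (63.8%, 55.2 to 71.8), against 428 of 925 downstream (46.3%, 43.0 to 49.5). Both shares include Mut4-only peaks, upstream for example those of MEX3C and NOM1, and are not given without them. Of the intronic peaks beyond 5000 bp, 343 of 547 were higher in Mut4 (62.7%, 58.5 to 66.8), with a median log2 fold of 0.21. The share therefore did not rise steadily with distance.

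These 2 distance ranges are the lowest and the highest of the division and were singled out after their values were seen. The subsets that follow hold many of the same peaks and are no independent check. Among ZHX2-only peaks the shares were 37.9% (32.4 to 43.5) at 250 to 500 bp and 68.2% (57.2 to 77.9) at 2000 to 3000 bp, with 52.3% (42.5 to 62.1) at 3000 to 5000 bp. The subset off chromosomes 7, 19 and 20 was chosen after seeing the data. Its shares were 33.8% (27.8 to 40.1), 66.2% (53.7 to 77.2) and 48.6% (36.9 to 60.6) at the same 3 distances. Among peaks with at least the members' median of 59 reads in total they were 46.8% (38.9 to 54.9), 80.6% (64.0 to 91.8) and 61.0% (44.5 to 75.8). In each subset the share at 3000 to 5000 bp lay between the other two. With unscaled reads 3.20% of the 1063 were higher in Mut4, so the side of 1 depends on the scaling.

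Exonic peaks within the same distance were lower in Mut4 as a class and showed no such order. Of 771, 275 were higher in Mut4 (35.7%, 32.3 to 39.2), with a median log2 fold of -0.26. The share was 35.8% (31.7 to 39.9) among those that spanned the start and 35.4% (29.2 to 42.1) among the others. At 2000 to 3000 bp it was 20.7% (7.99 to 39.7) of 29, where the intronic share was 70.0%.

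**Figure D2:**
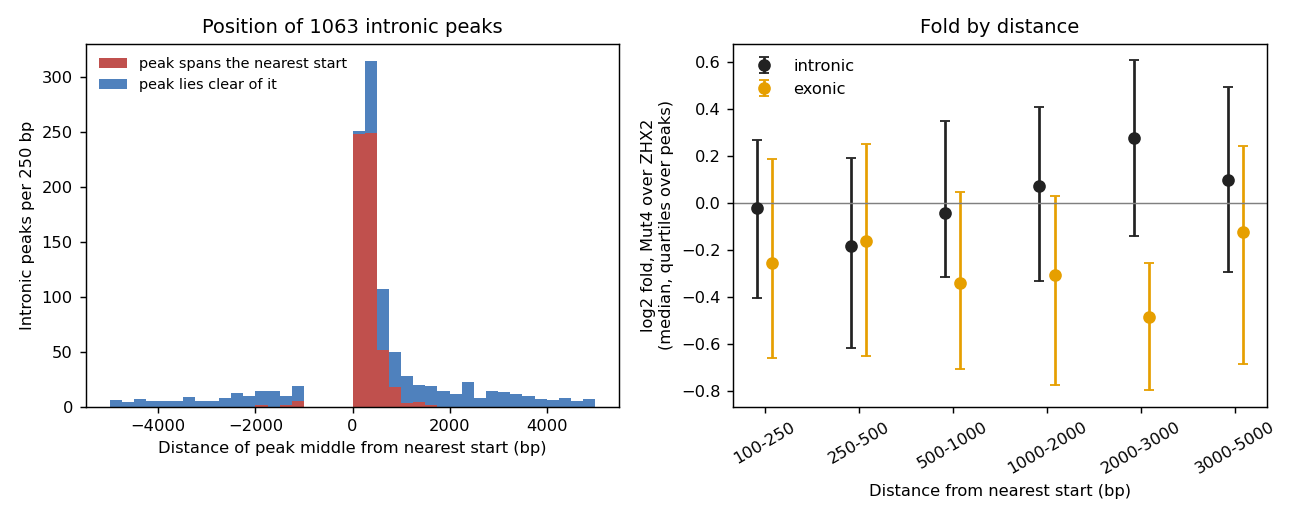
Left, number of intronic peaks per 250 bp by the signed distance (bp) of the peak middle from the nearest start, split by whether the peak spans it; 925 lie downstream and 138 upstream. Right, median log2 fold of Mut4 over ZHX2 (points) with quartiles over peaks (bars) by distance (bp) for intronic and exonic peaks; the intronic median is -0.19 at 250 to 500 bp and 0.28 at 2000 to 3000 bp.

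Most intronic peaks stood without a separate promoter peak of the same gene. A promoter-class peak was listed for the gene of 154 of the 1063 (14.5%, 12.4 to 16.7). It was listed for 36 of the 581 peaks that spanned their start (6.20%, 4.38 to 8.48) and for 118 of the 482 that did not (24.5%, 20.7 to 28.6). A peak over both start and intron gets 1 class in the list, so a spanning intronic peak can be the promoter signal of its gene.

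Where a gene had both, the reads of its intronic and promoter peaks were compared inside the same libraries, which makes the ratio of folds independent of scaling. The promoter peak was the gene's one with most reads. The median gap between the paired peaks was 7666 bp, so a pair need not belong to the same start. The intronic peak held fewer reads in most of the 141 genes, with a median ratio of intronic to promoter reads of 0.739 in Mut4 and 0.690 in ZHX2. The fold at the intron exceeded the fold at the promoter in 81 genes and was below it in 60, with a median log2 ratio of 0.13 (quartiles -0.42 and 0.70). The exact interval of the ratio lay above 1 in 16 genes and below 1 in 8. In 4 of the 16 the intronic peak was Mut4-only, that is, listed because it was called in Mut4 alone, so a high intronic fold there follows from the mark. Among the 136 genes with a ZHX2-only intronic peak the interval lay above 1 in 11 and below 1 in 8, with a median log2 ratio of 0.070.

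At PRDM11, a member of the PR domain family of histone methyltransferase-like proteins, the intronic peak had 17 reads in Mut4 and 2 in ZHX2, while its promoter peak had 30 reads in Mut4 and 104 in ZHX2. The ratio of folds was 29.5 (6.27 to 270). NOM1, a nucleolar protein gene, had 16 reads in Mut4 and 1 in ZHX2 at the intron, against 48 in Mut4 and 80 in ZHX2 at the promoter, and a ratio of 26.7 (3.84 to 1132). Both intronic peaks are Mut4-only, so these ratios are given as a description. MEX3C, an RNA-binding ubiquitin ligase gene, had a ratio of 4.72 (1.65 to 14.5), on 14 intronic reads in Mut4 and 7 in ZHX2, also in a Mut4-only peak.

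ASMTL gave the ratio best supported by reads among the 5 largest. Its intronic peak had 162 reads in Mut4 and 197 in ZHX2, and its promoter peak 25 in Mut4 and 102 in ZHX2, a ratio of 3.36 (2.03 to 5.68). The peak, on chromosome X at 1446968 to 1449079, lies in the pseudoautosomal region that X and Y share. ZNF343, a zinc-finger gene, followed at 2.90 (1.30 to 6.55), with an intronic peak that itself spanned a start.

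In the opposite direction LENG8 had 14 intronic reads in Mut4 and 43 in ZHX2, while its promoter peak had 85 reads in Mut4 and 61 in ZHX2, so that the fold was 4.28 times lower at the intron (2.06 to 9.19). NAA38, a subunit gene of an N-terminal acetyltransferase, was 4.09 times lower at the intron (2.02 to 8.32). The others were TNK2, a tyrosine kinase gene, at 3.39 times (1.29 to 10.4), RASGRP3, an activator of Ras proteins in B cells, at 3.01 times (1.09 to 9.18), and BICRAL, a chromatin remodelling subunit, at 2.39 times (1.31 to 4.35). At LENG8 and NAA38 the promoter fold was above 1 and the intronic fold below it. The intronic peaks of NAA38 and BICRAL spanned the start they were measured from. The list places that of NAA38 in intron 1 of 39, and whether this intron belongs to NAA38 was not checked.

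**Figure D3:**
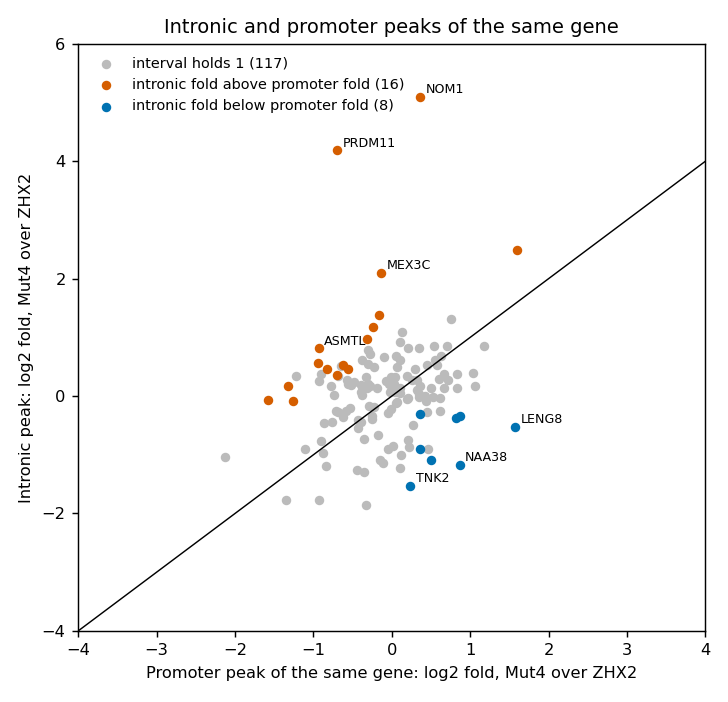
Log2 fold of Mut4 over ZHX2 at the intronic peak (vertical) and the promoter peak (horizontal) of the same gene, 1 point for each of 141 genes, with the line of equal folds. Coloured genes have a ratio whose exact 95% counting interval excludes 1: 16 above the line and 8 below it.

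The largest folds towards Mut4 among peaks with at least the median number of reads lay in repeated sequence. DUX4, a homeobox factor gene of the D4Z4 repeat near the end of chromosome 4 (ENSG00000260596), had 97 reads in Mut4 and 30 in ZHX2 at 190177874 to 190178195, a fold of 6.92 (4.56 to 10.8). A nearby DUX4 peak of 177 bp had 525 reads in Mut4 and 240 in ZHX2, a fold of 4.68 (4.01 to 5.48). The pseudogene ROCK1P1 on chromosome 18 had 535 reads in Mut4 and 205 in ZHX2 at 110276 to 110709, a fold of 5.59 (4.75 to 6.60). These genes have near-identical copies, so their reads could belong to another copy and the values are uncertain. Both were higher in Mut4 even before scaling, as was the non-coding gene AP002784.1, with 75 reads in Mut4 and 37 in ZHX2 and a fold of 4.34 (2.89 to 6.62).

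Peaks of other genes followed at lower folds. USP2-AS1, antisense to the deubiquitinase gene USP2, had 46 reads in Mut4 and 37 in ZHX2, a fold of 2.66 (1.69 to 4.22). ZNF343 on chromosome 20 at 2508352 to 2509139 had 34 reads in Mut4 and 28 in ZHX2, a fold of 2.60 (1.53 to 4.45), and its peak covered most of the start window printed above. PPP2R3B, a regulatory subunit gene of protein phosphatase 2A in the pseudoautosomal region, whose X and Y copies share reads, had 57 reads in Mut4 and 49 in ZHX2, a fold of 2.49 (1.67 to 3.73).

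NCOA5, a nuclear receptor coactivator gene, had 61 reads in Mut4 and 54 in ZHX2 at chromosome 20, 46089064 to 46090067, a fold of 2.42 (1.65 to 3.56). U2AF2, the splicing factor gene whose product binds the polypyrimidine tract before exons, had a common peak on chromosome 19 at 55654956 to 55655977. It held 68 reads in Mut4 and 61 in ZHX2, a fold of 2.39 (1.66 to 3.43). Adjusted p-values for USP2-AS1, ZNF343, PPP2R3B, NCOA5 and U2AF2 in the authors' deposited table ran between 0.00535, at U2AF2, and 0.0388, at ZNF343.

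The Mut4-only peaks were short and mostly low in ZHX2. DDRGK1, an endoplasmic reticulum protein gene of the UFM1 pathway, had 30 reads in Mut4 and 6 in ZHX2, a fold of 10.7 (4.38 to 31.5). ZNF282, a zinc-finger gene, had 19 reads in Mut4 and 6 in ZHX2, a fold of 6.78 (2.60 to 20.7). ZNF414 was the one among the 20 whose interval included 1, with 20 reads in Mut4 and 33 in ZHX2, a fold of 1.30 (0.706 to 2.33).

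The lowest folds were led by a non-coding gene and a T cell gene. FAM230F, on chromosome 22 at 18891010 to 18891982 in a family of near-identical copies, had no read in Mut4 and 62 in ZHX2, 9.65-fold lower in Mut4 against a floor of 3 reads in the Mut4 library and at least 7.62-fold lower by its exact interval. CD8A (ENSG00000153563), the co-receptor chain of cytotoxic T cells, had 13 reads in Mut4 and 385 in ZHX2 at chromosome 2, 86788460 to 86789415, in intron 3. It was 13.8-fold lower in Mut4 (7.99 to 26.2), with 3.49e-22 as its adjusted p in the authors' deposited table, and it held more ZHX2 reads than any other intronic peak near a start. Of the 30 genes on the list of T cell and NK cell markers, CD28 and LCK also had listed peaks, outside the set described here. The CD28 peak, of the transcription end class, had 1 read in Mut4 and 346 in ZHX2, 162-fold lower (28.8 to 6400), whereas the LCK promoter peak had 28 in Mut4 and 62 in ZHX2, a fold of 0.967 (0.596 to 1.53). The labels do not describe the constructs the cells carry, so whether the reads at CD8A and CD28 came from the cells' own loci could not be checked, and both values are uncertain.

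AL158212.2, a non-coding gene on chromosome 10, had 4 reads in Mut4 and 103 in ZHX2, 12.03-fold lower (4.56 to 45.0). HMGB3, a high-mobility-group chromatin protein gene, had 6 reads in Mut4 and 58 in ZHX2, 4.51-fold lower (1.95 to 12.8). MAP1LC3A, an LC3 gene of autophagosome formation, had 31 reads in Mut4 and 251 in ZHX2 at chromosome 20, 34558102 to 34559751, 3.78-fold lower (2.60 to 5.68). MAP1LC3A combined a large difference with many reads, and the authors' deposited table gave it 3.06e-07 as adjusted p.

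KLHL29, a kelch-like family gene, had 10 reads in Mut4 and 80 in ZHX2, 3.74-fold lower (1.93 to 8.09), in a peak that covered all of its printed window. PSMA7, a subunit gene of the 20S proteasome, had 15 reads in Mut4 and 93 in ZHX2, 2.90-fold lower (1.67 to 5.38). SGCB, the beta-sarcoglycan gene, had 14 reads in Mut4 and 78 in ZHX2, 2.60-fold lower (1.46 to 4.98). The authors' deposited table gave an adjusted p of 0.00379 for KLHL29, 0.00992 for PSMA7 and 0.0432 for SGCB. At each of these genes the counting interval excluded a fold of 1.

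**Figure D4:**
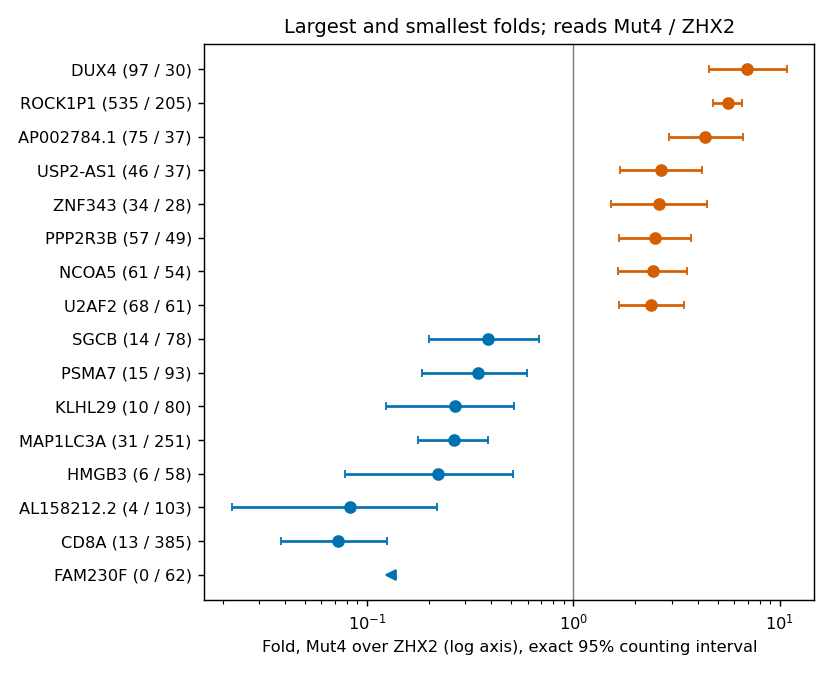
Fold of Mut4 over ZHX2 (logarithmic axis) with exact 95% counting intervals for the 8 largest and 8 smallest folds among intronic peaks with at least the median number of reads, 1 peak per gene, with the reads in Mut4 and ZHX2 beside each name. The arrow of FAM230F starts at the limit of its exact interval, 7.62-fold lower; intervals of the upper 8 lie above 1 and those of the lower 8 below it.

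The other peaks with most reads lay on both sides of 1. RAC1, the small GTPase of cell motility, had 144 reads in Mut4 and 275 in ZHX2, a fold of 1.12 (0.910 to 1.38). SPESP1, a sperm protein gene, had 67 reads in Mut4 and 318 in ZHX2 and was 2.22-fold lower in Mut4 (1.70 to 2.93). Of the 6 common peaks with most reads, ASMTL had a fold of 1.76 (1.42 to 2.18) and the other 5 had intervals that included 1, such as ZNF335, a regulator of lymphocyte and neural genes, at 1.13 (0.863 to 1.46) and ZBTB40 at 0.766 (0.559 to 1.04).

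Several genes had 3 intronic peaks near starts. RASSF2, a Ras-association tumour suppressor gene on chromosome 20, had folds of 1.23 (0.839 to 1.78), 1.70 (1.08 to 2.65) and 1.35 (0.891 to 2.03). Its peaks with folds of 1.23 and 1.70 were measured from the same start. PRDM15, a PR domain zinc-finger gene, had folds that differed more. One peak, upstream of a start, had 23 reads in Mut4 and 21 in ZHX2, a fold of 2.35 (1.24 to 4.46). Another, just downstream of a start, had 22 reads in Mut4 and 72 in ZHX2, a fold of 0.654 (0.386 to 1.07). The remaining PRDM15 peak had 14 reads in Mut4 and 30 in ZHX2, a fold of 0.999 (0.490 to 1.94). RUNX1T1, a corepressor gene, had folds of 1.50 (0.700 to 3.12), 0.918 (0.370 to 2.09) and 0.738 (0.504 to 1.06), and OSBPL3, an oxysterol-binding protein gene, folds of 1.52 (0.937 to 2.45), 1.06 (0.701 to 1.57) and 1.56 (0.956 to 2.51).

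Genes of 18 pathway and cell-type lists, 1059 genes in all, were then followed. Of these genes, 109 had an intronic peak near a start, 55 higher in Mut4 and 54 lower. Their median log2 fold was 0.063, against -0.013 over all intronic peaks near starts. The counting interval lay above 1 in 17 and below 1 in 6. Over all listed peaks it lay above 1 at 11.0% and below 1 at 11.0%, and over the peak with most reads of each of the 1017 genes at 8.55% and 9.14%. Of the 109 CD8A, PRDM2 and U2AF2 passed an adjusted p of 0.05 by the authors' deposited table. Over all listed peaks that share was 3.43% with more signal in Mut4 and 2.53% with less. Where a gene had several peaks, the one with most reads was counted, which makes an interval apart from 1 likelier. These directions rest on the scaling: a peak with a fold above 1 but fewer reads in Mut4 than in ZHX2, such as those of CD37, TXNRD1, ATF5, KDM4C, MAD1L1, RNF168, RNF216 and PPP6R1, changes side when the reads are left unscaled.

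Of 36 B cell genes, 5 had an intronic peak near a start. The fold was above 1 at 4 of them, with an interval above 1 at 2, and their median log2 fold was 0.36, but none passed an adjusted p of 0.05 by the authors' deposited table. CD79B, a signalling chain of the B cell receptor, had 36 reads in Mut4 and 34 in ZHX2, a fold of 2.27 (1.38 to 3.74), and CD37, a tetraspanin of B cells, had 34 in Mut4 and 44 in ZHX2, a fold of 1.65 (1.03 to 2.65). PAX5, the factor that sets B cell identity, had 60 reads in Mut4 and 100 in ZHX2, with a fold of 1.28 (0.917 to 1.79) that counting error can hold. POU2F2, a B cell transcription factor gene, stood at 1.27 (0.748 to 2.10), and BANK1, a B cell scaffold gene, had 3 reads in Mut4 and 15 in ZHX2, a fold of 0.428 (0.0795 to 1.51). Before scaling CD79B alone of the 5 had more reads in Mut4 than in ZHX2. The promoter peak of CD79B had a lower fold than its intronic peak, with 19 reads in Mut4 and 48 in ZHX2, and the ratio of folds was 2.67 (1.25 to 5.80).

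Germinal centre and lymphoma genes showed no member apart from 1, with 3 of 5 folds above 1 and a median log2 fold of 0.19. BCL7A stood at 0.824 (0.557 to 1.20) and the plasma cell regulator PRDM1 at 1.17 (0.610 to 2.19). Of 2 NF-kappaB genes, the inhibitor gene NFKBIE stood at 1.44 (0.885 to 2.33) and TRAF3IP2 at 0.868 (0.443 to 1.62). Among T cell and NK cell markers CD8A alone had an intronic peak near a start, and no myeloid or erythroid marker and no gene of the ZHX and NFY list had one.

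Ferroptosis genes, which control death by lipid peroxidation, had 7 peaks, of which 5 lay on the Mut4 side, and a median log2 fold of 0.31. TXNRD1, a thioredoxin reductase gene, had 64 reads in Mut4 and 71 in ZHX2, a fold of 1.93 (1.36 to 2.74). NCOA4, the receptor that delivers ferritin to autophagy, had 22 in Mut4 and 24 in ZHX2, a fold of 1.96 (1.05 to 3.65). VKORC1L1, a vitamin K epoxide reductase gene, had 13 reads in Mut4 and 65 in ZHX2, 2.33-fold lower (1.27 to 4.62). SLC3A2, the heavy chain of the cystine and amino acid transporters, had 20 reads in Mut4 and 38 in ZHX2, a fold of 1.13 (0.621 to 1.99).

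Stress response genes split 1 higher and 3 lower, and ATF5, an ATF4 target factor, had 43 reads in Mut4 and 51 in ZHX2, a fold of 1.81 (1.17 to 2.76), while ATF3 had 20 in Mut4 and 68 in ZHX2, a fold of 0.630 (0.362 to 1.05). The arginine transporter gene SLC7A1 stood at 0.845 (0.432 to 1.57).

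Chromatin genes formed one of the largest groups. Of 13 histone methyltransferase, demethylase and acetyltransferase genes, 5 had folds above 1 and 8 below, and the median log2 fold was -0.19. PRDM2, a histone H3 lysine 9 methyltransferase gene, had 41 reads in Mut4 and 193 in ZHX2, 2.20-fold lower (1.56 to 3.16), and the authors' deposited table gave an adjusted p of 0.00931. NSD2, the histone H3 lysine 36 methyltransferase gene, had 4 reads in Mut4 and 28 in ZHX2, 3.27-fold lower (1.14 to 12.8). The demethylase genes KDM4C and KDM6B were on the other side, with 85 reads in Mut4 and 108 in ZHX2 (1.69, 1.25 to 2.26) and with 67 in Mut4 and 94 in ZHX2 (1.53, 1.10 to 2.11).

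Deacetylases, corepressors and remodellers had 4 folds above 1 and 8 below (median log2 fold -0.27), and DNMT3A, a de novo DNA methyltransferase gene, was 2.06-fold lower (1.21 to 3.72) with 17 reads in Mut4 and 75 in ZHX2. Sequence-specific factors of blood cells had 8 folds above 1 and 6 below (median log2 fold 0.11). Among them GFI1 stood at 0.707 (0.471 to 1.04), NFATC2 at 1.48 (0.991 to 2.20), IKZF1 at 1.09 (0.632 to 1.85) and NFIC at 1.59 (1.03 to 2.43).

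Among cell cycle and DNA repair genes, MAD1L1, a spindle checkpoint gene, had 86 reads in Mut4 and 112 in ZHX2, a fold of 1.64 (1.23 to 2.20), and RNF168, a histone ubiquitin ligase gene of double-strand break repair, had 103 in Mut4 and 165 in ZHX2, a fold of 1.34 (1.03 to 1.72). BARD1, the partner of BRCA1, stood at 0.794 (0.470 to 1.30). Of 9 ubiquitin and proteasome genes, 5 were higher and 4 lower, and RNF216 had a fold of 1.72 (1.14 to 2.59).

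Splicing genes lay on both sides, with 3 of 7 higher in Mut4. U2AF2, with the fold given above, stood against CLK4, a kinase gene of splicing factors, with 30 reads in Mut4 and 122 in ZHX2, 1.90-fold lower (1.26 to 2.93). EIF2S2, a subunit gene of the initiation factor that brings the first tRNA, had 40 reads in each library and so a fold of 2.14 (1.35 to 3.41). Of 17 MAP kinase, PI3K and small GTPase genes, 9 had folds above 1 and 8 below (median log2 fold 0.066). RHOG had a fold of 2.08 (1.27 to 3.41), INPP5D, the lipid phosphatase gene SHIP1, 1.99 (1.14 to 3.49) and PPP6R1 1.76 (1.22 to 2.55).

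Sequence was compared over RefSeq start windows. Of the 1063 intronic peaks, 445 (41.9%, 38.9 to 44.9) overlapped at least 1 window and 398 overlapped one of their own gene, against 74.4% of promoter-class peaks with at least 1. Peaks that spanned their start overlapped one at 394 of 581 (67.8%, 63.8 to 71.6) and the others at 51 of 482 (10.6%, 7.98 to 13.7).

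Of the 445 intronic peaks that overlapped a window, 394 spanned their start, so these windows describe starts, not introns away from them. The 538 windows that the 445 peaks overlapped were as rich in G and C as those of promoter peaks. Their median G+C content was 68.7%, with 30 CG pairs, against 67.7% and 30 under promoter-class peaks and 58.7% and 14 over all 35116 windows. The GC box (GGGCGG or CCGCCC) was in 78.4% of the windows of intronic peaks, 76.1% of those of promoter peaks and 45.0% of all windows. The CCAAT box (CCAAT or ATTGG) was in 32.7%, 31.8% and 34.6% in the same order.

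Windows of intronic peaks held some motifs less often than those of promoter peaks. The ETS site (CCGGAAG or CTTCCGG) was in 14.1% (11.3 to 17.4), against 20.3% (19.3 to 21.3) under promoter peaks and 10.3% of all windows. The CRE core (TGACGT or ACGTCA) was in 9.29% (6.98 to 12.1), against 14.8% (14.0 to 15.7) and 7.98%. For the YY1 site (GATGGCG or CGCCATC) the shares were 11.3%, 10.9% and 4.20%, and the homeobox core (TAATTA) was in 0.372%, 1.20% and 4.84%. These are shares of letter matches on either strand, and windows of neighbouring starts can share bases.

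The direction of the fold differed with base composition. The 445 intronic peaks with a window were split into 3 groups of near equal size by the G+C content of the window nearest their middle, at 64.7% and 73.0%. In the G+C-rich group 45 of 145 peaks were higher in Mut4 (31.0%, 23.6 to 39.2), with a median log2 fold of -0.25. In the G+C-poor group 79 of 152 were higher (52.0%, 43.7 to 60.1), with a median of 0.019, and in the middle group 67 of 148 (45.3%, 37.1 to 53.7). Intervals of the fold lay above 1 at 3 peaks and below 1 at 27 in the G+C-rich group, and above 1 at 14 and below 1 at 8 in the G+C-poor group.

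The lower share in the G+C-rich group was not particular to introns. Promoter-class peaks split at the same limits gave 38.3% (35.4 to 41.4) higher in Mut4 in the G+C-rich group and 57.3% (54.6 to 59.9) in the G+C-poor group, and exonic peaks near starts gave 22.5% (15.4 to 31.0) and 40.6% (32.2 to 49.5). The middle group gave 53.7% (51.0 to 56.4) for promoter-class peaks. For exonic peaks it gave 41.5% (33.3 to 50.1), which is not below their G+C-poor share. Among intronic peaks with at least 59 reads the shares were 36.4% (26.4 to 47.3) in the G+C-rich group and 46 of 92 (39.4 to 60.6%) in the G+C-poor group, whose intervals overlap. Off chromosomes 7, 19 and 20 they were 30.2% (22.3 to 39.0) and 45.1% (36.1 to 54.3). Median reads were 18 in Mut4 and 48 in ZHX2 in the G+C-rich group, against 21 in Mut4 and 44 in ZHX2 in the G+C-poor group. The part of base composition in the difference between near and far intronic peaks was not tested, because most peaks away from a start overlapped no window.

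**Figure D5:**
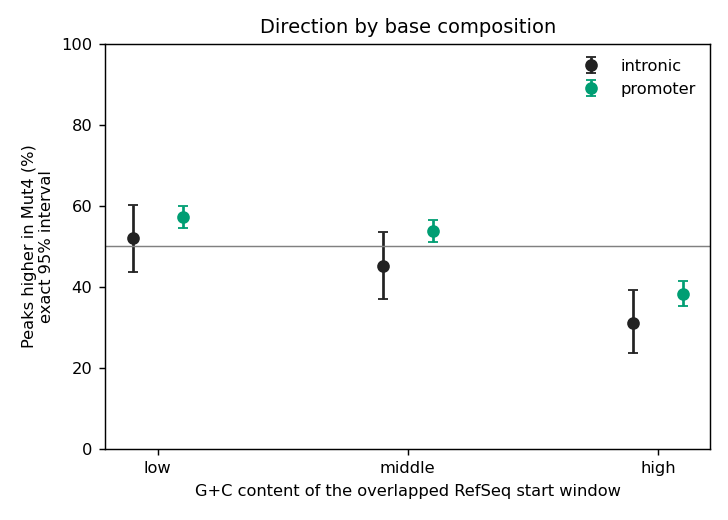
Share of peaks with a fold above 1, that is, higher in Mut4 (vertical, %), by G+C content of the overlapped start window (horizontal, 3 groups), for intronic peaks near starts and promoter-class peaks, with exact 95% binomial intervals. The intronic share is 52.0% in the G+C-poor, 45.3% in the middle and 31.0% in the G+C-rich group.

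Just inside the limit of 5000 bp, a peak in ALOX5, the arachidonate 5-lipoxygenase gene, had its middle 4978 bp from a start, with 8 reads in Mut4 and 21 in ZHX2. Just outside the limit, a peak in AC016727.1 at 5026 bp had 8 reads in Mut4 and 22 in ZHX2.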

How the data were processed

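ZHX2 ChIP libraries of DB cells were compared through 1 deposited table; input libraries were not used here. Per the file headers it gives, per peak, the authors' log2 fold and log2 CPM with a raw and an adjusted p-value. The sources used here name no tool for it. The deposited log2 fold runs ZHX2 over Mut4; folds here run Mut4 over ZHX2. The submitters' processing notes list build hg38 and, without roles, MACS2 2.2.6, deepTools 3.4.3, BWA 0.7.17, HOMER, Trim Galore 0.6.4, Picard 2.22.2-0, MultiQC 1.8 and FastQC 0.11.9. Positions are those of the table; the sources used here do not say if they count from 0 or 1.

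Whole reads were recovered from the deposited fold and CPM, which they gave back within 1e-09 at 8871 of 8871 peaks. Library sizes are those over listed peaks times scaling factors of 0.965 in Mut4 and 1.04 in ZHX2, so depth outside peaks is unknown. The median listed peak held 22 reads in Mut4 and 45 in ZHX2, which sets a lower precision in Mut4. With no read the limit is 3 reads, 11.4 CPM in Mut4 and 5.34 CPM in ZHX2. Intervals of folds and shares are Clopper-Pearson at 95% and of fold ratios exact conditional ones, all for counting error only. An exact negative binomial test with dispersion 0.01 was set against the deposited p-values, and 99.8% of them matched within 0.001 (log10). Scripts ran in Python 3.11.15 with scipy 1.17.1, pandas 2.3.3, numpy 2.4.6 and matplotlib 3.10.9 and were tested on simulated reads.

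A peak spans its start where the deposited distance is at most its length divided by 2. The distance equals the peak's middle minus a RefSeq start within 2 bp at 962 of 4581 peaks whose gene has one, and an edge at 12. A gene's promoter peak is its promoter-class peak with most reads. RefSeq windows were matched by position.

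Named genes are 1 peak per gene: the 8 largest and 8 smallest folds at or above the members' median reads, the peaks with most reads overall and by mark, list members with most reads, genes with most members, the 5 largest and 5 smallest intron to promoter ratios, the peaks beside the distance limit, and SLC3A2. Symbols starting LOC, LINC, MIR, SNOR, RNU or RNA5 were left out, and 2 genes the rule named are not reported here. Some further list members are named because their interval excluded 1 or for comparison, chosen after their values were seen, and the printed windows of COPS6 and RRBP1, the groups by G+C and the division by spanning were chosen in the same way. The peaks and lists were chosen with earlier results of these data known. Alternatives were unscaled reads, centring, a reads filter, a 2500 bp limit, merging per gene, other thresholds, other promoter choices and other chromosome sets.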

Additional observations from a re-analysis of the deposited data

How the results depend on the processing

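Scaling decided direction and size. With unscaled reads 3.20% of intronic peaks near starts were higher in Mut4, 58.2% lay past 2-fold and 73.1% had an interval apart from 1, by construction of the shift. Of the 99 named peaks with reads in both libraries, 34 then changed sign, each a fold above 1 with fewer reads in Mut4, and at 24 the interval of the scaled fold included 1. At the other 10 the unscaled log2 folds were -0.28 at ASMTL, -0.37 at CD37, -0.15 at TXNRD1, -0.25 at ATF5, -0.35 at KDM4C, -0.38 at MAD1L1, -0.68 at RNF168, -0.32 at RNF216, -0.28 at PPP6R1 and -0.34 at a RASSF2 peak. Centring on the median of all peaks kept all 99 values within their counting error.

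Among peaks at or above the median reads of all peaks, 53.6% were higher in Mut4, 9.09% past 2-fold, 25.2% with an interval apart from 1, 6.06% past the authors' adjusted p threshold of 0.05 and 11.7% beside a promoter peak. The last share was 11.3% within 2500 bp. A 4-fold threshold left 2.63%, an adjusted p under 0.01 left 2.82% and a dispersion of 0.04 left 1.79%. Without chromosomes 7, 19 and 20, chosen after seeing the data, 44.0% were higher and 15.4% had an interval apart from 1. The other alternatives stayed within the counting error of the main share. No paired analysis was possible because each arm had 1 ChIP library. Depth limits single peaks: at a median of 19 reads in Mut4 and 40 in ZHX2, 874 of 1063 intervals included 1.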

Other observations

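The share of intronic peaks near starts that were higher in Mut4 varied by chromosome under the authors' scaling. It was 59 of 86 on chromosome 7 (68.6%, exact 95% interval 57.7 to 78.2), 64 of 104 on chromosome 19 (61.5%, 51.5 to 70.9) and 14 of 19 on chromosome 18 (73.7%, 48.8 to 90.9). On chromosome 22 it was 5 of 30 (16.7%, 5.64 to 34.7), with a median log2 fold of -0.45. These chromosomes were singled out after their values were seen. The shares on chromosomes 7 and 18 include Mut4-only peaks, whose folds above 1 the call favours. Shares of all listed peaks on the same chromosomes are not set beside them, so a trait of a whole chromosome cannot be told from one of its intronic peaks.

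Several peaks with under the members' median of 59 reads also passed an adjusted p of 0.05 by the authors' deposited table. Among those marked unique to ZHX2, HIP1R, a clathrin-binding protein gene, had 3 reads in Mut4 and 41 in ZHX2, a ratio of 0.157 (0.0310 to 0.491). N4BP2L1 had 3 reads in Mut4 and 33 in ZHX2, a ratio of 0.195 (0.0382 to 0.621). The Mut4-only peak of RNU6-937P, a copy of the U6 small nuclear RNA, had 13 reads in Mut4 and no read in ZHX2, 9.28-fold higher in Mut4 against a floor of 3 reads in the ZHX2 library and at least 6.53-fold higher by its exact interval.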
